A study of Mus musculus with 12 samples.

Results

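The 9 genes described here carry out class I antigen presentation: B2m, H2-K1, H2-D1, Tap1, Tap2, Tapbp, Psmb8, Psmb9 and Nlrc5. They were taken by symbol from a count table of 23337 genes, all 9 were found, and all 9 were among the 12217 genes that passed the filter on low counts. The libraries came from microglia, the resident macrophages of the brain, of wild type male C57BL6N mice at postnatal day 60, and the study compared their homeostatic state between brain regions. There were 3 libraries each from cerebellum, striatum, hippocampus and cortex, each made from 3000 live cells of the TMEM119+ gate (CD45low, CD11b+), with the tissue of a region pooled from 3 to 5 mice. No group carried an allele or a treatment that another lacked, so region was the only labelled difference. Whether the 3 libraries of a region were drawn from different animals is not stated in the labels, and the p-values below therefore reflect only how far these particular libraries scatter, part of which may be technical. In bulk RNA, fewer cells of a type and less RNA per cell cannot be told apart.

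Class I molecules display peptides from a cell's own proteins at its surface, where CD8+ T cells and natural killer cells read them. A heavy chain (in these mice H2-K1 or H2-D1) pairs with beta-2-microglobulin, the product of B2m, and is loaded in the endoplasmic reticulum with peptides cut by the proteasome. The transporter of Tap1 and Tap2 brings the peptides in, tapasin, the product of Tapbp, holds the empty heavy chain at the transporter, and Psmb8 and Psmb9 are catalytic subunits of the immunoproteasome. Nlrc5 is the transactivator of class I genes and acts at their promoters through a complex of RFX and NF-Y proteins, and interferon-gamma raises most of these genes. Microglia at rest are known for low surface class I in comparison with activated microglia.

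Of the 9 genes, 7 lie on chromosome 17 within 1.35 Mb of the mouse H2 complex (GENCODE vM21 annotation of GRCm38, to which the mm10 build named in the submitters' processing notes corresponds). Tapbp runs from 33915899 to 33929292 on the plus strand and H2-K1 from 33996017 to 34000347 on the minus strand. Psmb9 (34181987 to 34187764, minus strand), Tap1 (34187553 to 34197225, plus strand), Psmb8 (34197721 to 34201454, plus strand) and Tap2 (34203527 to 34216321, plus strand) form a block of 34.3 kb. H2-D1 stands 1046.4 kb beyond Tap2, from 35262730 to 35267499 on the plus strand. B2m lies on chromosome 2 (122147686 to 122153083, plus strand) and Nlrc5 on chromosome 8 (94434356 to 94527272, plus strand). In this annotation Psmb9 and Tap1 overlap at their starts by 212 bases on opposite strands. The library kit does not mark strand, so reads from those bases cannot be told apart.

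RefSeq promoter windows (GRCm38.p6, 250 bases before to 50 after the RefSeq start) matched 7 of the 9 members, not Tap2 or Nlrc5. These starts can differ from the GENCODE starts above, as for H2-D1 (35263094 against 35262730), Psmb8 (34198195 against 34197721) and Tapbp (33919478 against 33915899). The B2m, H2-K1 and H2-D1 windows are shown for their matches to the NF-kappa-B consensus and the CCAAT box, described below. The Tap1 window is shown because it shares bases with that of Psmb9. In this order the windows lie at chr2:122147437-122147736 (plus strand), chr17:34000298-34000597 (minus strand), chr17:35262844-35263143 (plus strand) and chr17:34187306-34187605 (plus strand). They read along the gene's strand, with matches to the motifs searched in capitals.
B2m: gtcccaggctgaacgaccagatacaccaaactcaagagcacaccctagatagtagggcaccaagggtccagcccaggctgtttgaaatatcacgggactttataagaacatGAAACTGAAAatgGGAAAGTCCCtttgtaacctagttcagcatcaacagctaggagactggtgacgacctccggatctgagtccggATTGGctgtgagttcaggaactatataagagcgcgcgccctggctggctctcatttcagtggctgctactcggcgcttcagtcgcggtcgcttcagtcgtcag
H2-K1: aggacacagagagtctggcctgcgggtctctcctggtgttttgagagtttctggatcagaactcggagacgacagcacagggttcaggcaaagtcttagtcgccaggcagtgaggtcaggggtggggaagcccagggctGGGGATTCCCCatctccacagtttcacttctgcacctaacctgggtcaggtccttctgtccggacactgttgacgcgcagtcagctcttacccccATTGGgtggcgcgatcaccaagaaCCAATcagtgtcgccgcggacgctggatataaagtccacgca
H2-D1: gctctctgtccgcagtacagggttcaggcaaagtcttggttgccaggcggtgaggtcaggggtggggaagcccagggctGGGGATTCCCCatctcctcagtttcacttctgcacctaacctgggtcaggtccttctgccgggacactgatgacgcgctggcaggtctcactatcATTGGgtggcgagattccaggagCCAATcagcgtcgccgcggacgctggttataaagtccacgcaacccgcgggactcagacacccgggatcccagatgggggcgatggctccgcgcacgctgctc
Tap1: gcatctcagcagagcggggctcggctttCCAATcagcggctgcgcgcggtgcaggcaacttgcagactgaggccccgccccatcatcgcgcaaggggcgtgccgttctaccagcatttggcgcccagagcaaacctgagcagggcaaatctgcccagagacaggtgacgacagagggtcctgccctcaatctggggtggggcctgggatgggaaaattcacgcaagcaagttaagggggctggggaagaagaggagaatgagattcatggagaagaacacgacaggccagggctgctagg

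Each motif was searched on both strands. The interferon-stimulated response element core, GAAANNGAAA, stood in the B2m window at -139 to -130 from the start and in no other member's window, and 3.44% of all 32851 windows held it. Only this exact core was searched. Elements with other letters or spacing were not counted, so a window without a match may still hold an interferon element. The NF-kappa-B consensus stood at -126 to -117 in B2m, at -111 to -101 in the H2-K1 window shown and at -171 to -161 in H2-D1, and 8.46% of all windows held it. In another H2-K1 window, with its start at 34000333, it stood at -125 to -115. In both heavy chain genes it was the same stretch, GGGGATTCCCC, in which overlapping matches were found on both strands. A CCAAT box, the binding letters of NF-Y, was present in the windows of B2m, H2-K1, H2-D1, Tap1, Psmb9 and Tapbp and not in that of Psmb8, against 37.4% of all windows. Matches of one motif did not overlap those of another. The RefSeq starts of Tap1 and Psmb9 are 226 bases apart on opposite strands. With these starts the genes do not overlap, whereas in GENCODE they share 212 bases. Their windows share 275 bases, so the CCAAT box at -222 to -218 of Tap1 is the one at -8 to -4 of Psmb9. A match is a description of letters and not a binding site.

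The coding sequences of H2-K1 (1107 bases) and H2-D1 (1086 bases) were 91.5% identical, with 985 of 1077 aligned positions the same, so the assignment of reads between them is uncertain where they match. The 75-base window in which they differed most is shown because reads over such stretches separate the genes. It runs from coding position 477 to 551 of H2-K1 and from 486 to 560 of H2-D1 (GENCODE vM21), with the 16 differing bases in capitals.
H2-K1: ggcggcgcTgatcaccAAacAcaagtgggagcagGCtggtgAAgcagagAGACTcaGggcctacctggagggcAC
H2-D1: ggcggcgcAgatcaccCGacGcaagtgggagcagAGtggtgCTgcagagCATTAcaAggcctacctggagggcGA
Of all 50-base stretches of a transcript, 8.79% in H2-K1 and 14.3% in H2-D1 also occurred in transcripts of another gene, most often H2-D1 for H2-K1 and H2-Q1 for H2-D1. The share was 0% in B2m and Nlrc5, 5.83% in Psmb8, 6.47% in Tap1, 12.5% in Psmb9 and 12.6% in Tap2. It was highest in Tapbp, at 21%, with 19% shared with the predicted gene Gm19412. The sources used here do not say how the authors' counting treated such reads.

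The libraries held between 6479839 counts (striatum 2) and 14833340 counts (cortex 2). Levels are given in CPM, a gene's count relative to its library's TMM-scaled total. Levels and sums of cell type markers are instead relative to the unscaled total. The 10 microglia markers summed to between 30579 and 39624 CPM, and Tmem119 itself lay between 1058 and 3157 CPM. The defining T cell markers Cd3d, Cd3e, Cd3g and Cd8a and the B cell marker Ms4a1 had no count in any library, and the lymphocyte list summed to between 88.3 and 239 CPM, most of it Cd79b. The 9 endothelium markers summed to between 17.6 and 49.2 CPM, with Pecam1 at up to 44.0 CPM and Cldn5 at up to 0.0922 CPM. The 8 markers of border macrophages summed to between 249.6 and 866 CPM, most of it Mrc1, which had 223 to 715 CPM and counts in all 12 libraries. The part of such cells in the results was not tested. The library of striatum 2 stood apart: its log2 levels correlated with those of other libraries at r between 0.75 and 0.77, against 0.86 to 0.94 among the other 11, and 986 of the 10018 genes that averaged 50 counts or more were at 0 in it, against 4 to 44 in the others. All 6 markers of choroid plexus and ependyma had their highest level there, with a sum of 797 CPM and Ttr at 554 CPM. The sum ran from 0.339 to 285 CPM in cerebellum, from 46.9 to 797 CPM in striatum, from 0 to 56.2 CPM in hippocampus and from 0 to 116 CPM in cortex. Levels and differences of the members in striatum that moved most without it are therefore also given without it.

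Class I presentation genes were expressed in all 4 regions, and none of the 9 differed between regions beyond the spread of the libraries. In the test of all 4 regions together (edgeR's quasi-likelihood F test, Benjamini-Hochberg adjustment over 12217 genes, threshold 0.05), 0 of 9 members were called, and 0% of all tested genes were called. In each of the 6 pairs of regions the same test called 0 of 9 members and 0% of all genes. At an unadjusted p under 0.05 there were again 0 members in all 7 comparisons. Of all 12217 tested genes, 222 passed in the 4-region test. Between 124 (hippocampus against cortex) and 683 (striatum against cortex) of them passed in the pairs. Such small shares leave little to expect among 9 genes, so 0 members does not set them apart from all genes. DESeq2 and limma-voom also called 0 members. DESeq2 called between 0 and 11 of all genes in a comparison, and limma-voom called 0. In each member's order of region means, no step between neighbouring regions exceeded the spread by this test. A missed threshold does not show equal levels, so the intervals are given with each gene.

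**Figure D1:**
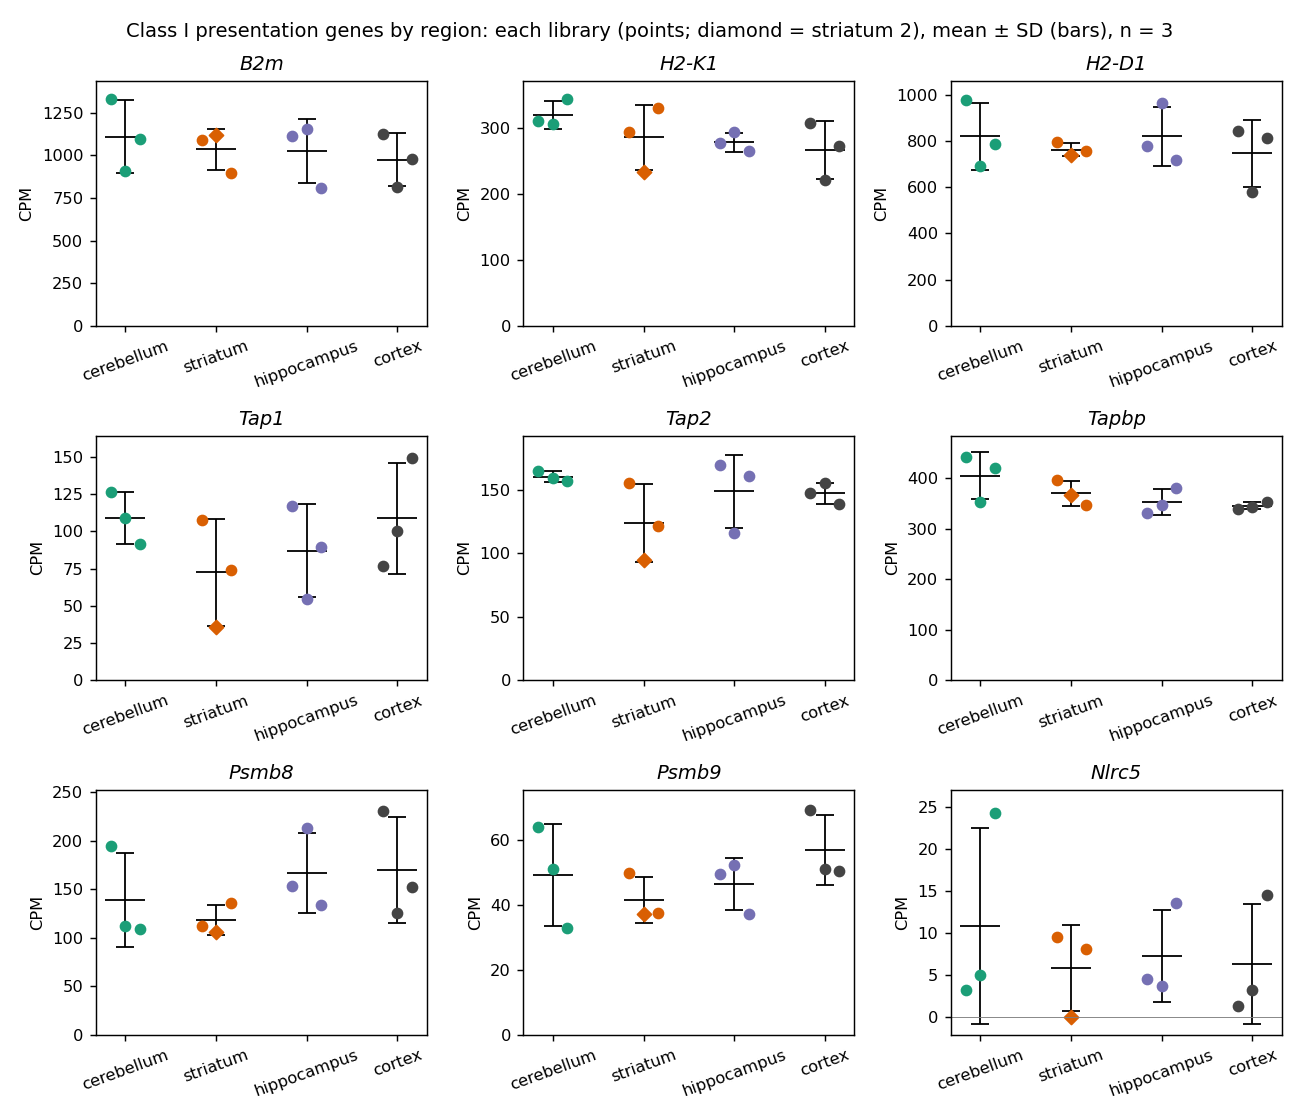
CPM of each member (y axis, 1 panel a gene) in each library by region, with points for libraries, a diamond for striatum 2, and bars for mean ± SD of 3 libraries. The points of the regions overlap in most panels, and the scatter within a region is widest for Tap1, Psmb8 and Nlrc5.

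Among the class I chains, B2m, the invariant light chain, had 1329, 906 and 1097 CPM in cerebellum, 1088, 1122 and 896 CPM in striatum, 1115, 1152 and 807 CPM in hippocampus, and 1125, 814 and 979.8 CPM in cortex. The lowest library of a region lay between 807 and 906 CPM and the highest between 1122 and 1329 CPM, so the regions overlapped throughout. The means followed the order cerebellum (1111 ± 212), striatum (1035 ± 122), hippocampus (1025 ± 189) and cortex (973 ± 155 CPM; SD, n = 3 each). The pair with the smallest p, cerebellum against cortex, differed by 0.19 ± 0.193 (log2, SE; edgeR unadjusted p = 0.339, adjusted p = 1.00). Single libraries moved it, to 0.04 without cerebellum 1, 0.07 without cortex 2, 0.30 without cortex 1 and 0.32 without cerebellum 2. Over all 6 pairs the 95% intervals stayed between 0.757-fold and 1.52-fold.

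The heavy chain gene H2-K1 had 311, 306 and 345 CPM in cerebellum, 295, 234 and 332 CPM in striatum, 277.5, 294 and 265 CPM in hippocampus, and 308, 221 and 273 CPM in cortex. The 3 cerebellum libraries all lay above the 3 hippocampus libraries, with 320.8 ± 21.0 CPM in cerebellum and 279 ± 14.4 CPM in hippocampus, and overlapped those of striatum and cortex. This was the only one of the 9 genes whose libraries did not overlap between cerebellum and hippocampus, against 7.63% of all tested genes. The fitted cerebellum over hippocampus difference was 0.20 ± 0.178 (log2, SE; edgeR unadjusted p = 0.275, adjusted p = 1.00). The pair with the smallest p was cerebellum against cortex, at 0.26 ± 0.178 (unadjusted p = 0.163, adjusted p = 1.00), and 0.14 without cortex 2. In striatum, the mean was 287 CPM over 3 libraries and 313 CPM without striatum 2.

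H2-D1, the other heavy chain gene, had 979.9, 690.5 and 789 CPM in cerebellum, 796, 738 and 756 CPM in striatum, 778, 965 and 717 CPM in hippocampus, and 845, 579 and 815 CPM in cortex. Its highest and lowest libraries were cerebellum 1 and cortex 2, and the 4 regions overlapped. The means were 819.7 ± 147 CPM in cerebellum, 763 ± 29.9 CPM in striatum, 820.1 ± 129 CPM in hippocampus and 746 ± 145 CPM in cortex (SD, n = 3 each). Its 4-region F of 0.287 was below the median F of 0.590 over all tested genes. Its 6 pair intervals stayed between 0.705-fold and 1.45-fold.

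The balance of the chains was compared within libraries. The CPM of H2-D1 over that of H2-K1 in the same library averaged 2.56 ± 0.506 in cerebellum, 2.71 ± 0.438 in striatum, 2.93 ± 0.311 in hippocampus and 2.78 ± 0.185 in cortex (SD, n = 3 each), and 2.49 in striatum without striatum 2. Per kb of exon, the 2 heavy chain genes together amounted to 0.456, 0.452, 0.475 and 0.456 of the B2m level in cerebellum, striatum, hippocampus and cortex. Over single libraries this share ran from 0.377 in striatum 2 to 0.537 in striatum 3. Without striatum 2 it ran from 0.415 in hippocampus 1 to 0.537 in striatum 3, and the striatum mean was 0.489.

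**Figure D2:**
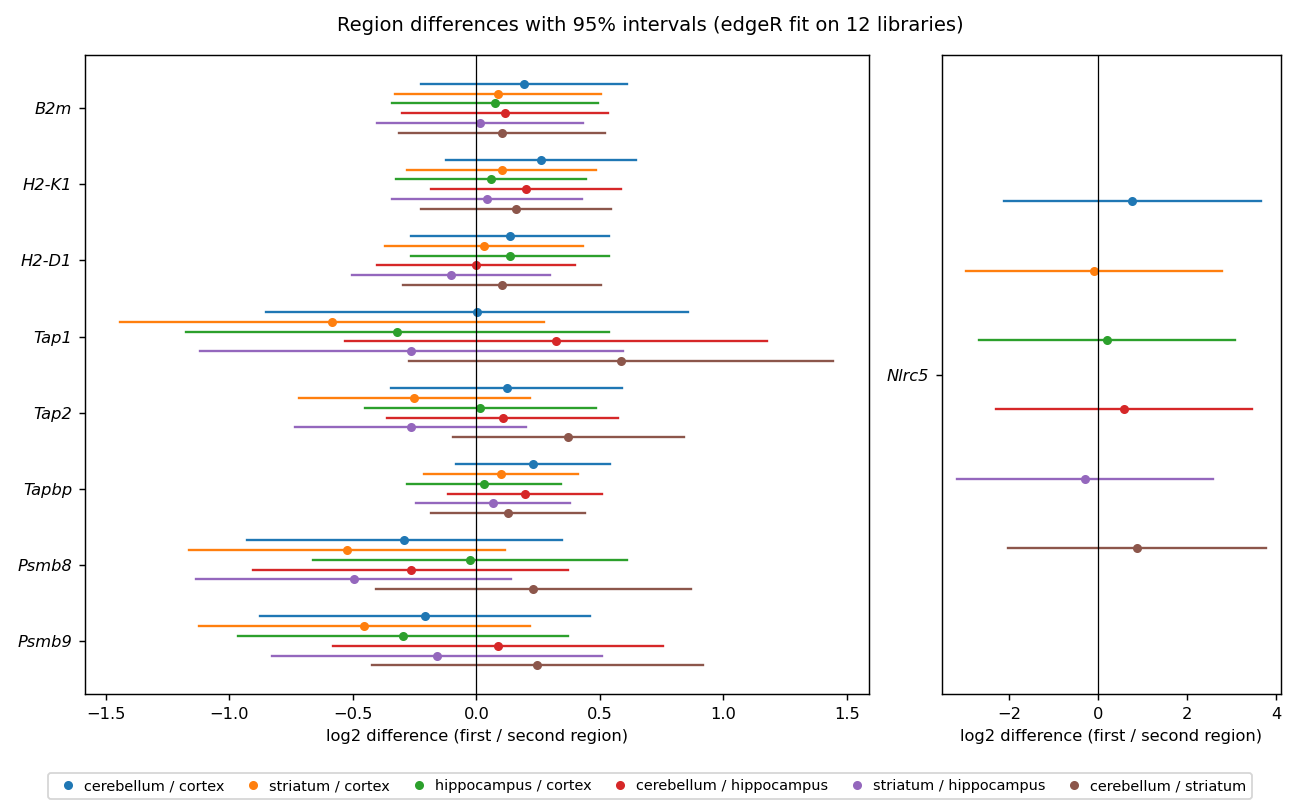
Fitted log2 difference of each member (y axis) in each of 6 region pairs (colours), first-named region over second, with 95% intervals as lines; Nlrc5 has its own, wider axis. Every interval of every member includes 0.

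For peptide transport, Tap1, which encodes a subunit of the peptide transporter, had 127, 109 and 91.3 CPM in cerebellum, 108, 35.7 and 74.3 CPM in striatum, 117, 54.6 and 89.8 CPM in hippocampus, and 76.6, 100.4 and 149.5 CPM in cortex. Striatum 2 was the lowest of all libraries and cortex 3 the highest, and every pair of regions overlapped. The means were 109 ± 17.7 CPM in cerebellum, 72.6 ± 36.0 CPM in striatum, 87.2 ± 31.3 CPM in hippocampus and 109 ± 37.2 CPM in cortex. Without striatum 2 the striatum mean was 91.0 CPM. The cerebellum over striatum difference was 0.59 ± 0.396 (log2, SE; edgeR unadjusted p = 0.164, adjusted p = 1.00), 0.26 without striatum 2 and 0.98 without striatum 1. Cortex 3 also had the highest sum of the border macrophage markers, which lay between 249.6 and 640 CPM in cerebellum, 396 and 716 CPM in striatum, 371.5 and 676 CPM in hippocampus, and 287 and 866 CPM in cortex. The part of these markers, of the choroid plexus RNA in striatum 2, or of its many genes at 0, in this value was not tested.

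Tap2, the partner subunit, had 165, 159 and 156.5 CPM in cerebellum, 155.3, 94.2 and 121 CPM in striatum, 169, 116 and 161 CPM in hippocampus, and 147, 155 and 139 CPM in cortex. The 3 cerebellum libraries lay above all those of striatum and of cortex, though by little, and within the range of hippocampus. Cerebellum averaged 160.1 ± 4.26 CPM, striatum 124 ± 30.6 CPM, hippocampus 149 ± 28.8 CPM and cortex 147 ± 8.0 CPM. Cerebellum over striatum was 0.37 ± 0.217 (log2, SE; edgeR unadjusted p = 0.109, adjusted p = 1.00), the widest such gap of Tap2. It was 0.57 without striatum 1 and 0.21 without striatum 2, whose absence put the striatum mean at 138 CPM.

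Tapbp, the gene of tapasin, was the steadiest member, with a coefficient of variation of 9.42% over the 12 libraries. It had 441.9, 353.4 and 421 CPM in cerebellum, 397, 367 and 348 CPM in striatum, 332, 347 and 382 CPM in hippocampus, and 339, 344 and 353.1 CPM in cortex. All cerebellum libraries were above all cortex libraries, the lowest of cerebellum by only a fraction of 1 CPM. The means were 405 ± 46.2 CPM in cerebellum, 371 ± 24.7 CPM in striatum, 353 ± 25.6 CPM in hippocampus and 346 ± 7.01 CPM in cortex. The cerebellum over cortex difference was 0.23 ± 0.144 (log2, SE; edgeR unadjusted p = 0.135, adjusted p = 1.00), and the 6 intervals ran from 0.824-fold to 1.46-fold.

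Psmb8, the immunoproteasome subunit that takes the place of Psmb5, had 195, 112 and 109 CPM in cerebellum, 112, 106 and 136 CPM in striatum, 153, 213 and 133 CPM in hippocampus, and 231, 125 and 152.5 CPM in cortex. The high libraries were cortex 1, hippocampus 2 and cerebellum 1, a single library in each of 3 regions, and the regions overlapped. Its means were 139 ± 48.6 CPM in cerebellum, 118 ± 15.8 CPM in striatum, 167 ± 41.5 CPM in hippocampus and 169.6 ± 54.8 CPM in cortex. Psmb8 had the smallest p of any member in any pair, in striatum against cortex, where the difference was -0.52 ± 0.295 (log2, SE; edgeR unadjusted p = 0.09997, adjusted p = 0.798). Without cortex 1 it was -0.24. Hippocampus 2 also had the highest sum of the 7 measured monocyte and neutrophil markers, which lay between 315 and 639.6 CPM in cerebellum, 318 and 691 CPM in striatum, 408 and 1064 CPM in hippocampus, and 304 and 806 CPM in cortex. Its sum was mostly Lyz2 (1059 CPM), a lysozyme gene that macrophages express as well, while Ly6c2 of monocytes had no count in any library. Ccr2 and Plac8 of the same list reached 13.6 and 13.8 CPM, with counts in 9 and 10 libraries, and the neutrophil genes S100a8 and S100a9 reached 0.840 and 0.113 CPM. The part of this list in the Psmb8 level was not tested.

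Psmb9, which takes the place of Psmb6, had 64.1, 51.2 and 32.8 CPM in cerebellum, 49.9, 37.3 and 37.6 CPM in striatum, 49.75, 52.4 and 37.3 CPM in hippocampus, and 69.5, 51.1 and 50.5 CPM in cortex. All 3 striatum libraries lay below all 3 cortex libraries, with striatum 1 and cortex 3 close together. The means were 49.4 ± 15.7 CPM in cerebellum, 41.6 ± 7.20 CPM in striatum, 46.5 ± 8.05 CPM in hippocampus and 57.0 ± 10.8 CPM in cortex. Striatum over cortex was -0.45 ± 0.309 (log2, SE; edgeR unadjusted p = 0.167, adjusted p = 0.811), with an interval from -1.12 to 0.22, -0.38 without striatum 2 and -0.29 without cortex 1. Set against the constitutive subunit it replaces, the CPM ratio of Psmb9 to Psmb6 averaged 0.254 ± 0.0533 in cerebellum, 0.217 ± 0.0411 in striatum, 0.228 ± 0.0538 in hippocampus and 0.248 ± 0.0295 in cortex, and 0.239 in striatum without striatum 2.

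Nlrc5 was the scarcest member and the most variable. It had 28, 64 and 202 counts in cerebellum, 80, 0 and 103 counts in striatum, 43, 40 and 174 counts in hippocampus, and 18, 50 and 139 counts in cortex. As CPM these were 3.24, 5.00 and 24.2 in cerebellum, 9.47, 0 and 8.15 in striatum, 4.53, 3.69 and 13.5 in hippocampus, and 1.37, 3.24 and 14.5 in cortex. In each of cerebellum, hippocampus and cortex a single library stood well above the other 2, and the regions overlapped. A count of 0 in striatum 2 allows up to 3 counts, or 0.463 CPM of the unscaled total, for counting error only. The coefficient of variation over the 12 libraries was 91.4%, and the biological coefficient of variation that edgeR fitted was 1.05, against 0.160 to 0.351 in the other 8 members and a median of 0.423 over all tested genes. The 6 pair intervals ran from 0.111-fold to 13.6-fold, so large regional differences of this gene were not detectable at this depth and spread. Cerebellum over striatum was 0.87 ± 1.34 (log2, SE; edgeR unadjusted p = 0.526, adjusted p = 1.00), 1.38 without striatum 1, 0.29 without striatum 2 and -0.51 without cerebellum 3.

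Read as a group, the members had a positive median difference for cerebellum over each other region, under TMM, DESeq2's size factors and no scaling factor alike. The median log2 difference of the 9 was 0.14 for cerebellum over cortex, against 0.01 over all tested genes, with 7 of 9 higher. It was -0.11 for striatum over cortex (all genes -0.06, 4 of 9 higher) and 0.03 for hippocampus over cortex (all genes -0.02, 6 of 9 higher). For cerebellum over hippocampus it was 0.12 (all genes 0.01, 7 of 9 higher), for striatum over hippocampus -0.16 (all genes -0.05, 3 of 9 higher), and for cerebellum over striatum 0.23 (all genes 0.06, 9 of 9 higher). Without striatum 2 the medians were 0.03 for striatum over cortex, -0.04 for striatum over hippocampus and 0.16 for cerebellum over striatum, so the sign for striatum over cortex rested on that library. Without a scaling factor the median for hippocampus over cortex was -0.0042. These comparisons share libraries and are not independent of each other. Between cerebellum and cortex libraries of the same number, B2m, H2-K1, Tap2, Tapbp and Nlrc5 were higher in cerebellum in all 3 pairs (14.8% of all genes), and Psmb8 was lower in cerebellum in all 3 (15.2% of all genes). With the number as a block in the fit, 0 members were called. Libraries that did not overlap were found for Tap2 and Tapbp between cerebellum and cortex (6.75% of all genes), for Psmb9 between striatum and cortex (10.6%), for H2-K1 between cerebellum and hippocampus (7.63%) and for Tap2 between cerebellum and striatum (6.34%). No member was without overlap between hippocampus and cortex (6.69% of all genes) or striatum and hippocampus (11.5%). Counts of 0 to 2 among 9 genes are too small to set the members apart from all genes.

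**Figure D3:**
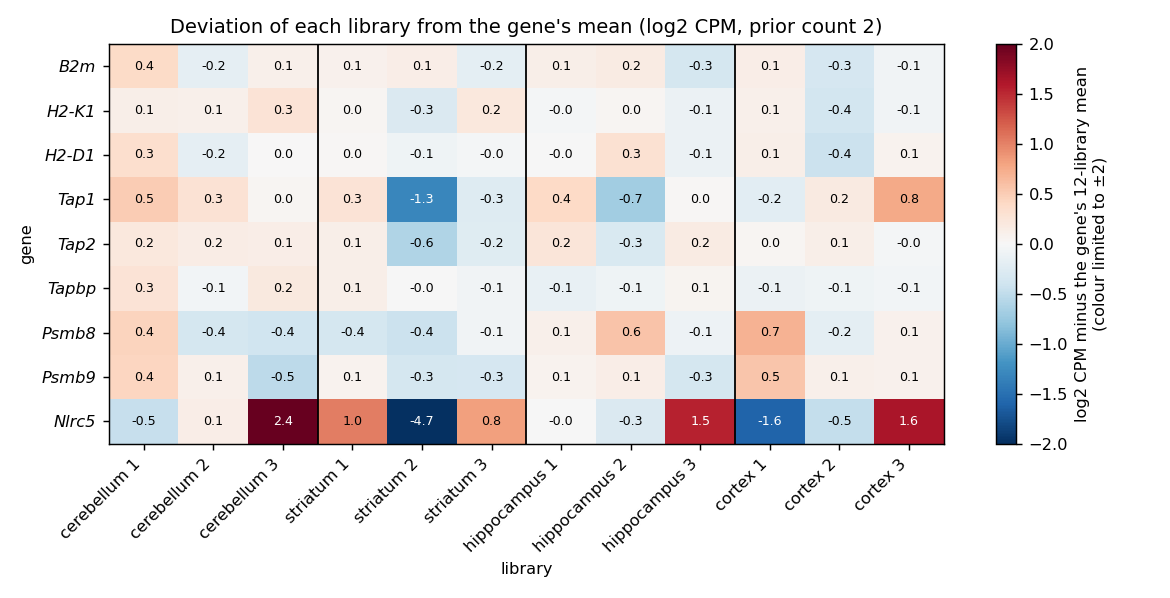
Log2 CPM of each member (rows) in each library (columns) minus the gene's mean over the 12 libraries, in red above and blue below, with colour limited to 2 in either direction. Striatum 2 is lowest for Tap1 (-1.31), Tap2 (-0.60), Psmb8 (-0.43) and Nlrc5 (-4.66) but not for B2m (0.13), and Nlrc5 is high in cerebellum 3 (2.36), hippocampus 3 (1.53) and cortex 3 (1.63).

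Per kb of exon the members spanned 3 orders of magnitude. B2m averaged 1205 ± 182 CPM per kb over the 12 libraries and ranked 21 of 10998 genes with a length. H2-D1 followed at 375 ± 52.5 CPM per kb (rank 92), H2-K1 at 174 ± 22.2 (rank 267), Tapbp at 127 ± 11.98 (rank 439) and Psmb8 at 91.0 ± 26.2 CPM per kb (rank 740). The transporter subunits and the second immunoproteasome subunit lay close together, with Tap2 at 42.1 ± 6.67, Psmb9 at 36.0 ± 8.15 and Tap1 at 32.0 ± 10.6 CPM per kb. Nlrc5 was at 0.933 ± 0.853 CPM per kb (rank 9611), below the median of 10.4 CPM per kb over all genes with a length, which the other 8 exceeded.

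**Figure D4:**
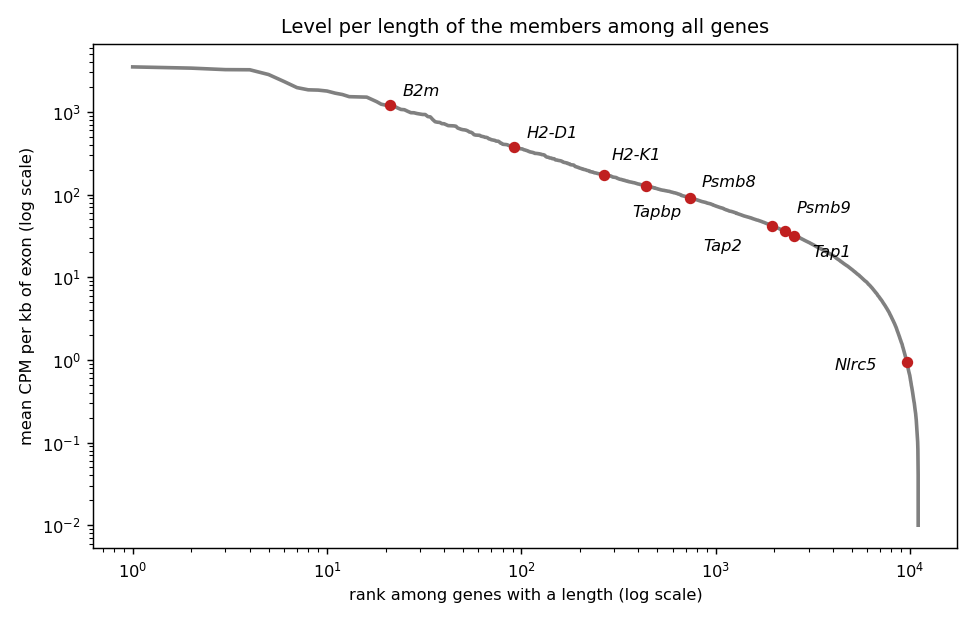
Mean CPM per kb of exon over 12 libraries (y axis, log scale) against rank among 10998 genes with a length (x axis, log scale), with all genes as the grey line and the members as red points. B2m ranks 21, Tap1, Tap2 and Psmb9 lie close together between ranks 1945 and 2539, and Nlrc5 ranks 9611.

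Members varied together to different degrees across the 12 libraries. The 36 pairs of members had a median Pearson r of 0.24 on log2 CPM, with 27 above 0. Points in these correlations share a library and its depth, and the values are descriptions. B2m and H2-D1, the light and a heavy chain, had r = 0.81 (Spearman 0.78), and 0.86 without striatum 2. B2m and the other heavy chain gene H2-K1 had r = 0.35, and 0.51 without striatum 2. Without the 2 libraries farthest from the median of B2m, r was 0.74 with H2-D1 and -0.14 with H2-K1. The value with H2-K1 thus depended on the libraries used. H2-D1 and Psmb8, of different steps, had r = 0.67 with and without striatum 2. Psmb8 and Psmb9 had r = 0.71 (Spearman 0.66), and 0.68 without striatum 2. The transporter subunits Tap1 and Tap2 had r = 0.84 (Spearman 0.65), but 0.66 without striatum 2 and 0.38 without the 2 libraries farthest from the median of Tap1, so this relation rests on those libraries. Tap1 and Psmb9, whose starts face each other across the shared window printed above, had r = 0.33, and 0.14 without striatum 2.

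The correlation of Nlrc5 with its known target genes depended on the libraries used. Its r was 0.68 with Tap1, 0.61 with Tap2, 0.49 with H2-K1, 0.02 with H2-D1 and -0.31 with B2m over 12 libraries. Without striatum 2, in which it had no count, the same values were 0.24, 0.03, 0.20, -0.14 and -0.27. With Psmb9 it was -0.21 over 12 libraries and -0.84 without striatum 2. It was 0.18 without the 2 libraries farthest from the median of Psmb9, a set that kept striatum 2. The sign of this r thus depended on which libraries were used. The median over all 36 pairs was 0.12 without striatum 2, with 23 above 0.

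**Figure D5:**
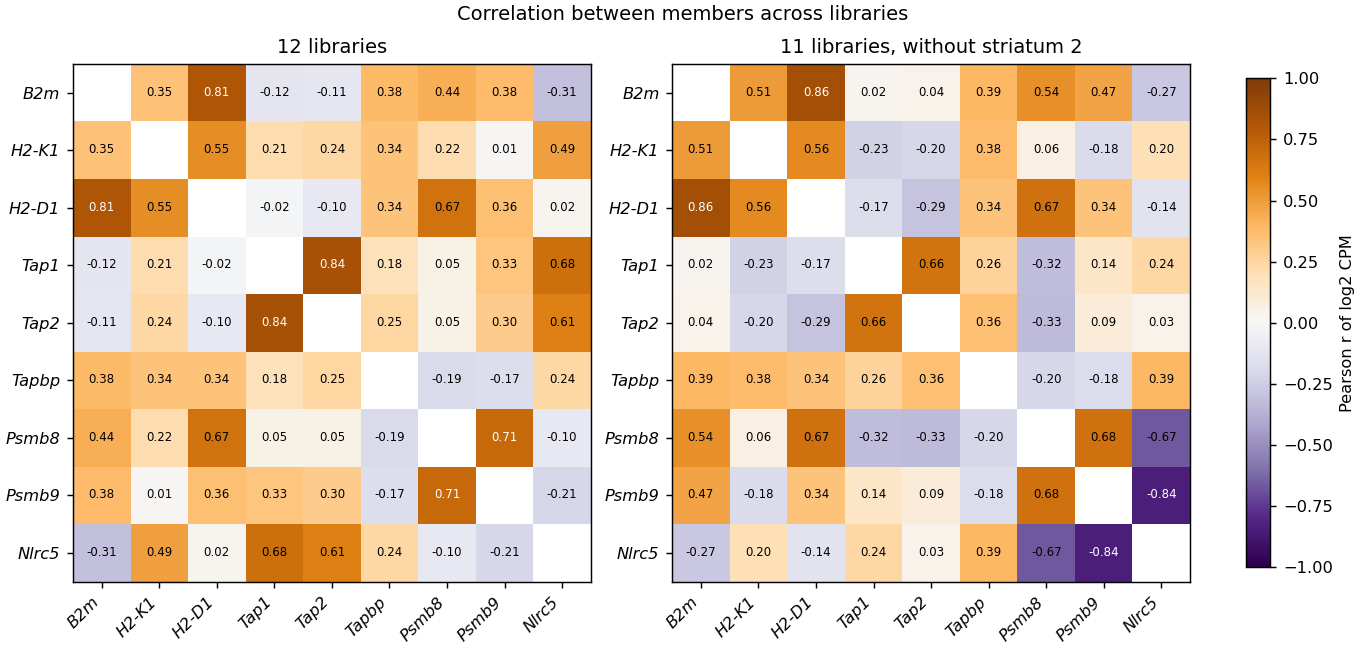
Pearson r of log2 CPM between each 2 members over 12 libraries (left) and over 11 libraries without striatum 2 (right), with orange above 0 and purple below. B2m with H2-D1 (0.81 and 0.86) and Psmb8 with Psmb9 (0.71 and 0.68) are high in both panels, and Tap1 with Nlrc5 is 0.68 on the left and 0.24 on the right.

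The genes whose profile was most like the mean standardized profile of the members, by Pearson r over 12 libraries among 10969 genes, were Lemd2 (0.93), Lrrc16a (0.93), Hmgn3 (0.89), Lass2 (0.88) and Sgce (0.88). The members' mean profile itself was highest in cerebellum 1 (1.10 SD units) and lowest in striatum 2 (-1.19). Without striatum 2, Lemd2 and Lass2 remained among the first 5 and Sgce had rank 82.

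Other genes of the pathway were given from lists, and none of their tested genes was called in any of the 7 comparisons by edgeR. Of 22 other class I loci, 20 were in the table and 9 were tested. The non-classical genes H2-T23, whose product presents leader peptides of class I chains, and H2-M3, which presents formylated peptides, averaged 87.0 and 65.3 CPM over the 12 libraries, whereas H2-Q7, H2-Q9, H2-T9, H2-M9 and H2-M10.1 had no count. In the 4-region test the lowest p-values of this list belonged to H2-T10, H2-T24 and H2-Q6 (edgeR unadjusted p = 0.0373, 0.0836 and 0.351, adjusted p = 1.00 for each). Without striatum 2 the edgeR unadjusted p-values were 0.0780, 0.0398 and 0.607 in the same order, and none of these genes was called. H2-T24 averaged 26.9 ± 7.43 CPM in cerebellum, 22.3 ± 5.49 CPM in striatum, 27.0 ± 5.05 CPM in hippocampus and 12.9 ± 3.43 CPM in cortex. H2-T10 and H2-Q6 averaged under 3 CPM in every region, and reads of such closely related loci are uncertain.

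The class I-like molecules that pair with beta-2-microglobulin were all 4 tested. Fcgrt, the heavy chain of the neonatal Fc receptor, averaged 567 ± 197 CPM in cerebellum, 486 ± 128 CPM in striatum, 555 ± 84.8 CPM in hippocampus and 634 ± 229.6 CPM in cortex. Its striatum mean was 559 CPM without striatum 2. Mr1, which presents microbial vitamin B metabolites, and Cd1d1, which presents lipids, averaged 29.1 and 38.1 CPM over the 12 libraries, and each was at 0 in 1 library, striatum 2. Among the 5 loading and trimming helpers, Pdia3, the disulfide isomerase of the loading complex, was at 1328 ± 204 CPM in cerebellum, 1229 ± 216 CPM in striatum, 1463 ± 92.4 CPM in hippocampus and 1364 ± 55.9 CPM in cortex. The striatum mean of Pdia3 was 1354 CPM without striatum 2. Tapbpl, the tapasin-related editor, and Erap1, the aminopeptidase that trims peptides, averaged 49.3 and 116 CPM over the 12 libraries. The median log2 difference of the helpers stayed between -0.09 and 0.09 in the 6 pairs, and its sign for cerebellum over striatum (0.09) and striatum over hippocampus (-0.09) turned without striatum 2 (-0.03 and 0.05).

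Of the 8 proteasome partners of the members, 0 had a fitted level above that of cortex in cerebellum, striatum or hippocampus, and 0 were called. These 3 comparisons share the cortex libraries, and the count was also 0 of 8 with DESeq2's size factors, with no scaling factor and without striatum 2. Their median log2 difference was -0.20 for cerebellum over cortex (all genes 0.01), -0.48 for striatum over cortex (all genes -0.06; -0.40 without striatum 2) and -0.16 for hippocampus over cortex (all genes -0.02). Psmb7, a constitutive catalytic subunit, averaged 71.7 ± 14.7 CPM in cerebellum, 46.6 ± 6.51 CPM in striatum, 70.6 ± 18.2 CPM in hippocampus and 79.3 ± 32.5 CPM in cortex. Psme2, a subunit of the proteasome activator PA28, averaged 134 ± 48.7 CPM in cerebellum, 106 ± 15.2 CPM in striatum, 149.7 ± 24.2 CPM in hippocampus and 165 ± 58.1 CPM in cortex. Psmb5, the constitutive counterpart of Psmb8, averaged 60.7 ± 25.8 CPM in cerebellum, 39.3 ± 15.8 CPM in striatum, 61.8 ± 14.2 CPM in hippocampus and 70.6 ± 24.0 CPM in cortex. The 4-region test gave unadjusted p-values of 0.154, 0.235 and 0.258 for these 3 genes, in that order (edgeR adjusted p = 1.00 for each). The CPM ratio of Psmb8 to Psmb5 was 2.39 ± 0.571 in cerebellum, 3.36 ± 1.39 in striatum, 2.69 ± 0.0493 in hippocampus and 2.42 ± 0.358 in cortex. It was 4.96 in striatum 2, and 2.56 in striatum without that library, below the hippocampus mean.

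Of 13 transcription factors of class I genes, 12 were tested, and Ciita, the transactivator of class II genes, had counts in only 2 libraries. Rfx5, the DNA-binding subunit of the RFX complex through which Nlrc5 acts, averaged 43.8 ± 17.8 CPM in cerebellum, 43.8 ± 25.2 CPM in striatum, 19.1 ± 5.45 CPM in hippocampus and 24.7 ± 5.59 CPM in cortex (4-region edgeR unadjusted p = 0.0614, adjusted p = 1.00), and 30.1 CPM in striatum without striatum 2. With that library left out, its 4-region edgeR unadjusted p was 0.0451, and Rfx5 was not called. Nfyb, a subunit of NF-Y, averaged 38.1 ± 4.76 CPM in cerebellum, 52.5 ± 19.3 CPM in striatum, 29.1 ± 5.44 CPM in hippocampus and 31.9 ± 5.40 CPM in cortex (unadjusted p = 0.0944, adjusted p = 1.00), and 42.3 CPM in striatum without striatum 2. With that library left out, its 4-region edgeR unadjusted p was 0.325. Irf2, an interferon regulatory factor, averaged 72.7 ± 13.6 CPM in cerebellum, 91.1 ± 8.29 CPM in striatum, 63.0 ± 11.5 CPM in hippocampus and 69.6 ± 8.56 CPM in cortex (unadjusted p = 0.198, adjusted p = 1.00). In striatum over cortex this list had a median of 0.19 (all genes -0.06) with 8 of 12 higher, and 0.07 without striatum 2.

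The receptors and kinases of interferon signalling were all 7 tested. Ifngr1, a chain of the interferon-gamma receptor, averaged 1321 ± 212 CPM in cerebellum, 1355 ± 162 CPM in striatum, 1222 ± 45.1 CPM in hippocampus and 1071 ± 44.7 CPM in cortex (4-region edgeR unadjusted p = 0.142, adjusted p = 1.00). Ifnar2, a chain of the type I interferon receptor, and the kinase Tyk2 averaged 175 and 142 CPM over the 12 libraries. Of 22 interferon response genes, 21 were tested. Stat2, which carries the type I interferon signal to the nucleus, averaged 70.6 ± 17.8 CPM in cerebellum, 128 ± 47.9 CPM in striatum, 65.1 ± 25.5 CPM in hippocampus and 66.6 ± 0.862 CPM in cortex (edgeR unadjusted p = 0.0321, adjusted p = 1.00). Without striatum 2, which had 183 CPM of Stat2, the striatum mean was 100.2 CPM and the unadjusted p = 0.257 (edgeR adjusted p = 1.00). Bst2, the gene of tetherin, averaged 73.8 CPM over the 12 libraries, and Iigp1, an interferon-induced GTPase, averaged under 2 CPM in every region with counts in 5 libraries.

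Among 9 class II genes, 7 were tested and 0 called. Cd74, the invariant chain of class II, averaged 40.7 ± 1.41 CPM in cerebellum, 39.6 ± 19.0 CPM in striatum, 94.4 ± 32.1 CPM in hippocampus and 122 ± 16.5 CPM in cortex (4-region edgeR unadjusted p = 0.00106, adjusted p = 1.00). Without striatum 2 its striatum mean was 50.3 CPM and its 4-region edgeR unadjusted p was 0.000144, and Cd74 was not called. H2-Ob and H2-DMa, which regulate class II peptide loading, averaged 36.9 and 72.7 CPM over the 12 libraries. The 4-region F of Cd74 was 10.2, against at most 1.38 in the class I members.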

How the data were processed

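Total RNA of 12 microglia libraries was copied with Smart-Seq v4, a poly(A)-primed kit without strand marking, and sequenced in a shared pool. The deposited values are whole-number read counts per gene symbol, without normalization. The submitters' processing notes name Trim Galore 0.4.3, STAR 2.5.3a, Picard, HTSeq and the mm10 build. The sources used here do not give the roles of these tools, the annotation, the read length or the strand setting.

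The tests used edgeR 4.0.16 in R 4.3.3. Genes were kept by filterByExpr (at least 10 counts in enough libraries of a region's size, at least 15 in total), sizes were scaled by TMM, and a mean for each region was fitted over all 12 libraries. The robust quasi-likelihood test was adjusted by Benjamini-Hochberg over 12217 genes, with a threshold of 0.05. Log2 CPM has a prior count of 2. DESeq2 1.42.0 and limma-voom (limma 3.58.1) were alternatives. Gene positions and exon lengths came from GENCODE vM21 by symbol, with lengths for 10998 tested genes (90%). Sequences were read with Python 3.11.15 and Biopython 1.88. The reads carry no molecular identifiers, so floors cover counting error only. Medians of lists, ratios and list genes without striatum 2, and medians under another scaling, were added after seeing the data.

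The members and lists were chosen with earlier results of these data known. Named are all members, up to 3 tested genes of each list with the smallest 4-region p, Tmem119, marker genes and the 5 genes most like the members' mean profile, from which RIKEN clones, predicted genes and genes of ribosomal proteins were left out. H2-T23, H2-M3, the loci at 0, Ciita and Psmb6 were named after their values were seen. Libraries of the same region differed by more than sampling noise (chi-square per degree of freedom between 29.8 and 80.5), and none was counted as a copy. Same-numbered libraries of cerebellum and cortex deviated together (r = 0.287, 0.101 and 0.224), which is over 0.1 in every pair. In the other 5 comparisons not every pair did. Of the 12 libraries, 9 correlated best with a library of their own number among those of other regions, and the labels do not say what a number marks.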

Additional observations from a re-analysis of the deposited data

How the results depend on the processing

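Under 18 alternative fits (DESeq2's size factors, no filter, DESeq2, limma-voom, the replicate number as a replicate block, the 6 libraries of a pair only, and each library left out), 315 member tests were recomputed and 0 passed the threshold, with adjusted p between 0.606 and 1.00. With the replicate block, 0 members and 0 of all genes were called in every comparison, so the paired fit changed no call. Counts of all genes called moved from 0 only under DESeq2, to 5 in the 4-region test, 6 for cerebellum against cortex, 11 for striatum against cortex, 3 for hippocampus against cortex, 2 for cerebellum against hippocampus and 3 for cerebellum against striatum; the cause was not tested. The log2 difference was recomputed for 1 pair of regions a member, the pair with the smallest p, and 2 of the 162 values changed sign, both uncalled: H2-D1 in hippocampus over cortex (-0.0203 without cortex replicate 2, 0.23 without cortex replicate 1) and Nlrc5 in cerebellum over striatum (-0.51 without cerebellum replicate 3, 1.38 without striatum replicate 1), which are the lowest and highest values with a library left out. With unscaled library sizes, each member's mean CPM over the 12 libraries moved by less than 1 SD. Striatum means without striatum 2 were compared after seeing the data. A mean of 3 libraries cannot move by 1 SD of those libraries when 1 is left out, so no conclusion is drawn from that comparison. The striatum mean went from 72.6 to 91.0 CPM for Tap1 and from 5.87 to 8.81 CPM for Nlrc5. Only that of B2m became lower, from 1035 to 992 CPM. Of the 5 genes most like the members, 2 remained without striatum 2. Leaving out 1 of 3 libraries leaves 2 in that region. With 0 to 202 counts, Nlrc5 had the fewest counts of the members, and the spread between its libraries was wide.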

Other observations

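Receptors of class I molecules and their relatives were looked up after the data had been seen, as a list of 8 symbols, of which 6 were in the table and 2 were tested. Lilrb3, a paired immunoglobulin-like receptor that binds class I, averaged 28.04 ± 13.6 CPM in cerebellum, 29.3 ± 8.90 CPM in striatum, 24.5 ± 5.96 CPM in hippocampus and 20.04 ± 19.7 CPM in cortex. Lilrb4, an inhibitory receptor of the same family, averaged 17.6 ± 19.3 CPM in cerebellum, 12.3 ± 5.34 CPM in striatum, 17.03 ± 3.20 CPM in hippocampus and 14.1 ± 14.5 CPM in cortex. The T cell co-receptor gene Cd8a and the natural killer receptor gene Klrc1 had no count in any library. Neither tested receptor was called by edgeR in the 4-region test (unadjusted p = 0.813 for Lilrb3 and 0.941 for Lilrb4, adjusted p = 1.00).

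The high Nlrc5 libraries of cerebellum, hippocampus and cortex carry the same replicate number in the labels. The libraries numbered 3 had 24.2 CPM in cerebellum, 8.15 CPM in striatum, 13.5 CPM in hippocampus and 14.5 CPM in cortex, whereas the other libraries of cerebellum, hippocampus and cortex lay between 1.37 and 5.00 CPM. The labels do not say what a number marks, and the pattern was noticed in the data.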
